A study of Mus musculus with 4 samples.

Results

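Cxcl12, Cxcr4 and Ackr3, a chemokine and its 2 receptors, were followed across the cells of the E18.5 mouse cortex. These 3 of the 16600 genes of the single-cell (sc) RNA-Seq table were chosen by name, as one ligand and receptor group. CD24+ CD45- cells had been sorted from the cortex of C57BL/6J fetuses, with CD24 as the marker of neurons and CD45 as that of blood cells. The 2 Setd5+/+ libraries are called WT3 and WT6, and the 2 Setd5+/- libraries Het5 and Het9, after the prefixes of the cell names. Setd5+/- fetuses carried the Setd5 GFP allele, which serves as a heterozygous knockout, and the labels name no treatment. Each library came from 1 fetus, so fetuses are the replicates, 2 per genotype.

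Cxcl12 is a secreted chemokine that binds the receptors Cxcr4 and Ackr3. Cxcr4 signals through Gi proteins and steers cell migration, whereas Ackr3 mainly recruits arrestin and removes Cxcl12 from the surroundings. In the embryonic cortex, the meninges and the subventricular zone are known sources of Cxcl12, and Cajal-Retzius cells and tangentially migrating interneurons are known receiving cells.

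The 4 libraries held 1445 to 1954 cells and 8205330 to 11742956 unique molecular identifiers (UMIs), with medians of 5398 to 5997 UMIs per cell. A UMI tags 1 captured transcript near its 3′ end, and levels are mean counts per 10000 UMIs of the cell. Setd5 itself was 1.18 and 1.07 in the Setd5+/+ libraries WT3 and WT6, against 0.540 and 0.586 in the Setd5+/- libraries (log2 fold change -0.89, SE 0.075, adjusted p = 0.00696, limma with Benjamini-Hochberg adjustment). Xist, expressed from the inactive X chromosome, was 20.6 and 21.5 in the Setd5+/+ libraries and 0.152 and 0.310 in the Setd5+/- libraries, and the Y-linked genes Ddx3y, Eif2s3y and Kdm5d were near 0 in the former. Sex and genotype therefore cannot be told apart in these fetuses. A set of 56 cell barcodes occurred in all 4 libraries. Its 224 cells lay in a melanocyte-like cluster (140 of its 147 cells) and in a cluster of immune and red blood cells (84 of 132). In the melanocyte-like cluster, Setd5 was 0.962 and 1.14 in the Setd5+/+ libraries and 1.19 and 1.24 in the Setd5+/- libraries, unlike the difference over all cells. The 224 cells held 0 UMIs of Cxcl12, 4 of Cxcr4 and 3 of Ackr3.

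Over the whole table, Cxcl12 gave 911 UMIs in 542 cells, Ackr3 277 UMIs in 251 cells and Cxcr4 178 UMIs in 155 cells. No cell had more than 9 UMIs of Cxcl12 or more than 3 of either receptor. With so few molecules, a cell without a UMI may still express the gene, and intervals given here cover counting error only. Where no cell had a UMI, the share that this allows is given as 3 counts of the total.

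Cxcl12 lies on chromosome 6 of GRCm38 (mm10), from 117168535 to 117181367 on the plus strand. Cxcr4 (128588199 to 128592293, minus strand) and Ackr3 (90203980 to 90216751, plus strand) both lie on chromosome 1. The 250 bases before each RefSeq start (GRCm38.p6) are shown to set the 3 promoters side by side, since the 3 transcripts were highest in different clusters of cells. Capitals mark CCGCCC, the core of a GC box, and TATAAA, the core of a TATA box, on either strand.
Cxcl12, chr6:117168285-117168534, plus strand: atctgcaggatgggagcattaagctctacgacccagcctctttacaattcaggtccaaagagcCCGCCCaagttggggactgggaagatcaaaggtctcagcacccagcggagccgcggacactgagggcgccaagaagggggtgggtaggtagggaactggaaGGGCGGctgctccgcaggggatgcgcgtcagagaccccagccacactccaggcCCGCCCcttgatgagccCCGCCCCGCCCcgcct
Cxcr4, chr1:128592300-128592549, minus strand: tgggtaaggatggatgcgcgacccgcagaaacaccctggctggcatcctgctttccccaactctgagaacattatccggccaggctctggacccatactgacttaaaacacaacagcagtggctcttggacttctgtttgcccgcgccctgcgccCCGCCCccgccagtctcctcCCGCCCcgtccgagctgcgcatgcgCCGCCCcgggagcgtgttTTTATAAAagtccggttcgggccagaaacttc
Ackr3, chr1:90203730-90203979, plus strand: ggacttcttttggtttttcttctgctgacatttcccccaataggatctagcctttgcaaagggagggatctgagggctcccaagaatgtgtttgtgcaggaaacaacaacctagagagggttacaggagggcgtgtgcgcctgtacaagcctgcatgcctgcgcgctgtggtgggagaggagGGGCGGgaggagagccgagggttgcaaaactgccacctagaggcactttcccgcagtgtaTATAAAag
The Cxcl12 window held 5 matches to CCGCCC, 2 of which overlap, the Cxcr4 window 3 and the Ackr3 window 1. Of 32851 promoters of the same length, 32.7% held at least 1. TATAAA occurred in the Cxcr4 window, where it overlaps its own reverse match, and in the Ackr3 window, but not in that of Cxcl12, and in 12.4% of all promoters. The letters AGGTGT (T-box factors), TAATTA (homeodomain factors) and CAGATG (an E-box), found in 11.8%, 4.84% and 14.4% of promoters, occurred in none of the 3 windows. GC content was 64.4% for Cxcl12, 61.2% for Cxcr4 and 54.0% for Ackr3, and the median of all promoters was 52.4%.

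The table holds no cell type assignment, so the cells were clustered again, with the 3 genes, their pathway genes and Setd5 left out of the variable genes. This gave 13 clusters, numbered 0 to 12 by size. Markers named cluster 6 intermediate progenitor-like (426 cells; led by Neurog2 and Eomes), cluster 0 excitatory neuron-like (1276 cells), cluster 4 interneuron-like (568 cells; Npy, Htr3a, Lhx6) and cluster 12 Cajal-Retzius cell-like (35 cells). In cluster 12, Reln, the secreted protein that defines Cajal-Retzius cells, averaged 18.8 and the transcription factor Trp73 averaged 2.59. Radial glia-like (3), subpallial progenitor-like (7), striatal neuron-like (8) and melanocyte-like (10) clusters were also named, and cluster 2 held cycling cells. Clusters 1, 5, 9 and 11 are given by number. Cluster 1 (1042 cells) stood between intermediate progenitors and young excitatory neurons. Its Eomes, the factor of intermediate progenitors, averaged 5.20 against 9.64 in cluster 6, and Neurod6, a factor of postmitotic excitatory neurons, averaged 13.0.

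The ligand was found along the excitatory lineage. In cluster 1, Cxcl12 was 1.33 in WT3, 0.933 in WT6, 1.18 in Het5 and 1.27 in Het9, a mean of 1.18 ± 0.174 (SD, n = 4 libraries). This cluster held 68.8% of all Cxcl12 UMIs, and 339 of its 1042 cells had one (32.5%, 95% exact binomial interval 29.7 to 35.5). Among these 13 clusters, its lowest library lay above every library of every other one. At a higher clustering resolution (20 clusters), a cluster led by Tfap2d had the highest mean, 1.09. Of its 260 cells, 166 were of cluster 5. Clusters led by Cdh8 and by Kif26b followed with 0.973 and 0.958, and the ranges overlapped. Cxcl12 was itself the leading gene of cluster 1 by fold, although it had no part in the clustering.
Cluster 5 (551 cells; led by Tac2, Nr2f2 and Neurod1) had 0.388, 0.375, 0.368 and 0.632 in WT3, WT6, Het5 and Het9. Its range overlapped that of cluster 9, described next, and their order turned with the settings. Excitatory neuron-like cells held less, at 0.195, 0.0951, 0.141 and 0.0961. In intermediate progenitor-like cells, Cxcl12 was 0.148, 0.0740, 0.0719 and 0.108, and the ranges of these last 2 clusters overlapped. Cells gated by 2 or more Eomes UMIs without a Dlx gene had 0.908, 0.560, 0.658 and 0.674 (20.4% of 1218 cells). This gate uses no clustering, and 545 of its cells were of cluster 1 and 341 of cluster 6, with a Cxcl12 UMI in 188 of the former and 17 of the latter.

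Cluster 9 (167 cells; led by Hells and E2f1, with Neurog2), with a mean of 0.417 against 0.441 in cluster 5, was uneven between fetuses. Cxcl12 was 0.566 in WT3 and 0.901 in Het5, but 0.130 in WT6 and 0.0717 in Het9, so the split ran across both genotypes. All 32 cells of cluster 9 with a Cxcl12 UMI also had a UMI of Neurod1 or Neurod6, factors switched on as cells become neurons. The other 22 cells without either factor held none, which allows a share of up to 13.6%. Neurog2, a factor of neurogenic progenitors, was 6.32 and 6.29 in WT3 and Het5 against 9.76 and 10.1 in WT6 and Het9. Its part in the split was not tested.

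In the interneuron-like, striatal neuron-like and melanocyte-like clusters, Cxcl12 was close to 0. It had a UMI in 1 of 568 interneuron-like cells (0.176%), 1 of 370 striatal neuron-like cells (0.270%) and 0 of 147 melanocyte-like cells, which allows a share of up to 2.04%. These cells had medians of 3988.5, 3642 and 5362 UMIs, against 5288.5 in cluster 1, and free RNA from broken cells was not measured. With every cell thinned to 3000 UMIs, 22.9% of 1014 cells of cluster 1 still had a Cxcl12 UMI, against 0.224% of 447 interneuron-like cells. The 28 shallower cells of cluster 1 and 121 of the interneuron-like cluster were left out. In Cajal-Retzius cell-like cells, Cxcl12 had 2 UMIs in 35 cells.
Cells of known non-neuronal sources of Cxcl12 were few in the table. Of the 6562 cells, 1 had UMIs of 2 endothelial markers, 1 of 2 pericyte markers and 4 of 2 meningeal fibroblast markers, and none of these cells held a Cxcl12 UMI. Among the 542 cells with Cxcl12, 3 of the 4 measured endothelial markers, 1 of the 2 pericyte markers and 4 of the 5 fibroblast markers were at 0.

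**Figure D1:**
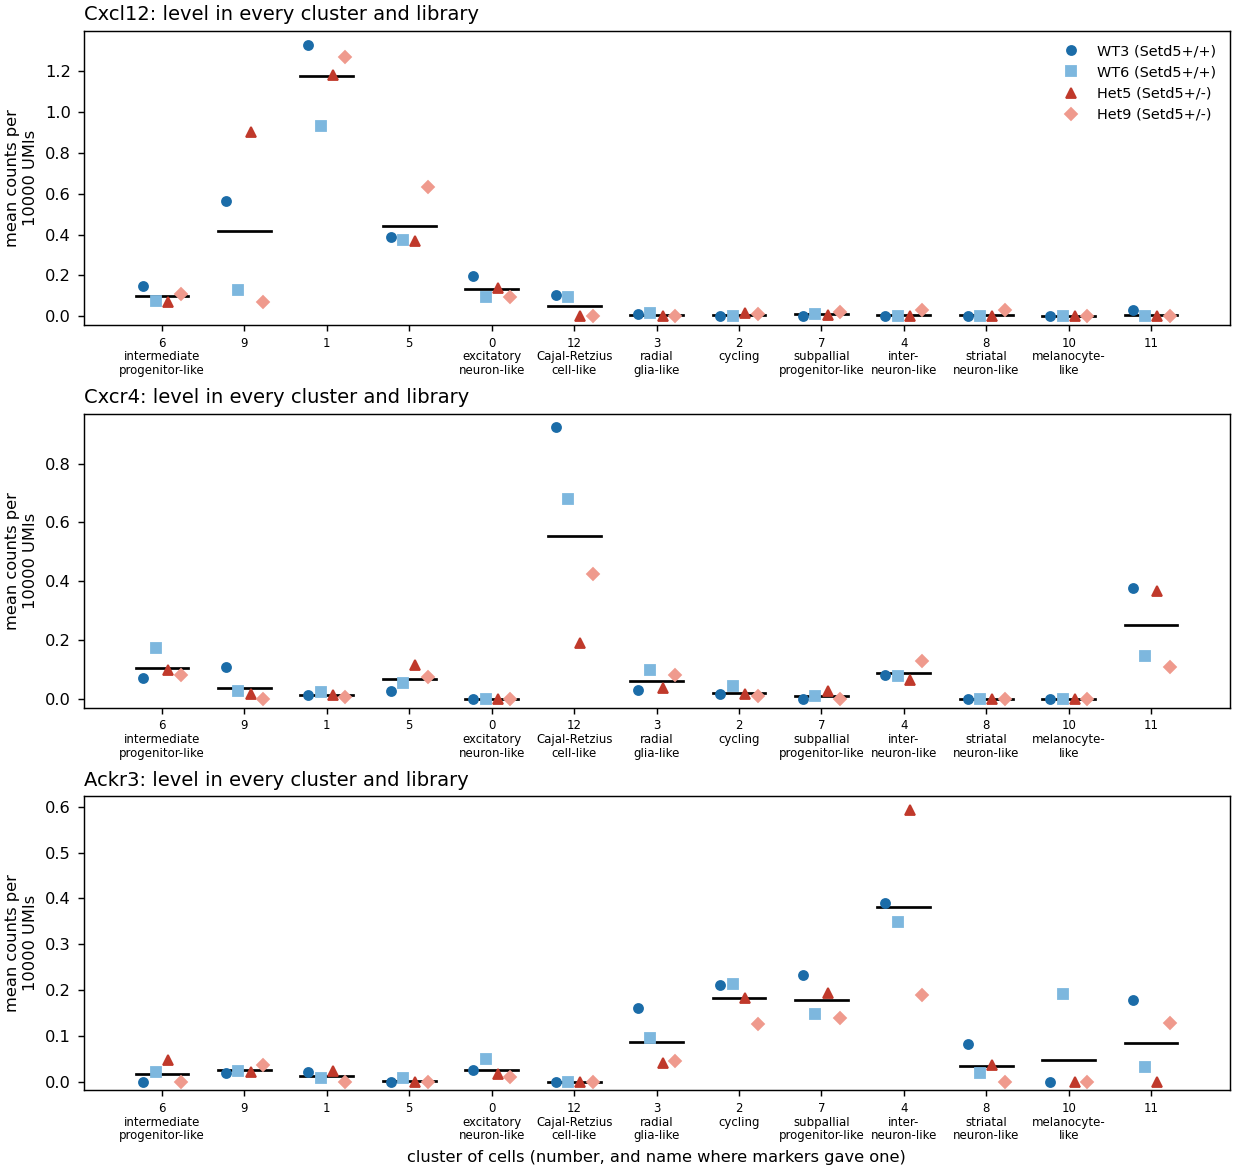
Mean counts per 10000 UMIs (y axis) of Cxcl12, Cxcr4 and Ackr3 in each of 13 clusters (x axis), with 1 point per library and a line at the mean of the 4 libraries. Cxcl12 stands highest in cluster 1 (0.933 to 1.33), Cxcr4 in cluster 12 (0.190 to 0.923) and Ackr3 in cluster 4 (0.190 to 0.593), and each panel has its own scale.

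Of the receptors, Cxcr4 was highest in Cajal-Retzius cell-like cells, the neurons of the cortical marginal zone. Its level there was 0.923 in WT3, 0.680 in WT6, 0.190 in Het5 and 0.425 in Het9, from 15 UMIs in 8 of 35 cells (22.9%, interval 10.4 to 40.1). Both Setd5+/- libraries were below both Setd5+/+ libraries, as for 17.3% of 8133 genes there, and no fit was made because the cluster held 7, 13, 7 and 8 cells, under the 20 per library required here. Cells chosen by Reln with Trp73, Lhx1 or Lhx5 alone, without clustering, gave 0.923, 0.537, 0.287 and 0.567, and there the genotypes overlapped. Of those 32 cells, 8 had a Cxcr4 UMI.
Cluster 11 had 0.378, 0.147, 0.367 and 0.110, from 6 UMIs only, 4 of them in cells whose barcodes occurred in all 4 libraries. Its other 48 cells had 0, 0, 0.896 and 0.195. This cluster joined immune cells, led by Cd74, with red blood cells, and 81 of its 132 cells had UMIs of 2 immune markers. Intermediate progenitor-like cells followed with 0.0717, 0.174, 0.0987 and 0.0824, from 39 UMIs in 34 of 426 cells (7.98%, interval 5.59 to 10.97). This level did not hold at the higher clustering resolution or with the 3 genes kept in clustering, where the counterpart of cluster 6 averaged 0.0402 and 0.0379, below interneuron-like and radial glia-like cells. Cells gated by 2 or more Eomes UMIs without a Dlx gene averaged 0.0524 (49 of 1218 cells). Interneuron-like cells had 0.0800, 0.0781, 0.0640 and 0.129, from 13 UMIs in 12 of 568 cells (2.11%, interval 1.10 to 3.66).
Cluster 5 had 0.0263, 0.0532, 0.115 and 0.0741, from 33 UMIs in 29 of 551 cells (5.26%, interval 3.55 to 7.47).
Radial glia-like cells held as many UMIs as intermediate progenitor-like cells, 39 in 35 of 718 cells, with 0.0295, 0.0969, 0.0366 and 0.0818. The ranges over the 4 libraries overlapped between all neighbors in the order of Cxcr4 levels. In contrast, 0 of 1276 excitatory neuron-like cells had a Cxcr4 UMI, which allows a share of up to 0.235%. The same was seen in 0 of 370 striatal neuron-like cells (up to 0.811%). In the gate with 2 or more UMIs of Neurod2 and Neurod6 but no Eomes or Dlx gene, 9 of 1584 cells had one (0.568%, interval 0.260 to 1.08). The interval of intermediate progenitor-like cells lay above all of these values, and free RNA was not measured. Their counterpart at the higher resolution had a Cxcr4 UMI in 8 of 305 cells (2.62%, interval 1.14 to 5.10). The share of interneuron-like cells was not set apart from the 1.06% of cluster 1 (interval 0.528 to 1.88) or the 1.52% of cycling cells. With cells thinned to 3000 UMIs, a Cxcr4 UMI was found in 7 of 35 Cajal-Retzius cell-like, 13 of 417 intermediate progenitor-like, 5 of 447 interneuron-like, 6 of 712 radial glia-like, 0 of 275 striatal neuron-like and 0 of 1199 excitatory neuron-like cells. The thinned interval of interneuron-like cells (0.364 to 2.59%) overlapped the exact binomial interval of striatal neuron-like cells (0 to 1.33%), so the 2 were not set apart.

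Ackr3, the scavenging receptor, was highest in clusters of the Dlx lineage, which makes inhibitory neurons. Interneuron-like cells had 0.391 in WT3, 0.349 in WT6, 0.593 in Het5 and 0.190 in Het9, from 67 UMIs in 60 of 568 cells (10.6%, interval 8.16 to 13.4). Cycling cells of cluster 2 had 0.211, 0.214, 0.183 and 0.126, and with 94 UMIs in 86 of 724 cells they held the largest part of all Ackr3 UMIs, 33.9%. Subpallial progenitor-like cells had 0.232, 0.149, 0.194 and 0.139. The ranges of these 3 clusters overlapped, so their order is not settled by 4 libraries. After thinning to 3000 UMIs, 7.16% of 447 interneuron-like cells, 5.75% of 713 cells of cluster 2 and 4.79% of 397 subpallial progenitor-like cells had an Ackr3 UMI, against 0.334% of 1199 excitatory neuron-like cells.
Radial glia-like cells had 0.160, 0.0962, 0.0411 and 0.0457, a lower mean with an overlapping range, and were not uniform. At a higher clustering resolution (20 clusters), 187 of them formed a cluster led by Mt3, Fabp7 and Slc1a3, genes of glia and radial glia, with Ackr3 at 0.386, 0.176, 0.121 and 0.195. This was the second highest mean of the 20, its range overlapped those of the cycling and subpallial progenitor-like cells, and 4 of its 18 cells with Ackr3 had a Dlx UMI. Excitatory neuron-like cells had an Ackr3 UMI in 13 of 1276 cells (1.02%) and cluster 5 in 1 of 551 (0.181%), and no background share was measured. No Ackr3 UMI was found in the 35 Cajal-Retzius cell-like cells, where Cxcr4 was highest, which allows a share of up to 8.57%.

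Gates on marker UMIs, which use no clustering, were compared next. Cells with Lhx6, the factor of interneurons from the medial ganglionic eminence, and a Dlx gene had Ackr3 at 0.386, 0.384, 0.539 and 0.366 (60 of 361 cells, 16.6%). Cells with a Dlx gene and Htr3a or Nr2f2 but no Lhx6 had 0.136, 0.121, 0.0560 and 0.0237 (24 of 517 cells, 4.64%), so all 4 libraries were higher with Lhx6. The gate without Lhx6 also took in cells of other kinds, and 147 of its 517 cells were of the interneuron-like cluster, against 199 of 361 with Lhx6. Within that cluster, Ackr3 had a UMI in 34 of the 199 and in 6 of the 147. Cxcl12 in the gate without Lhx6 was 0.0999, 0.182, 0.0337 and 0.0440 (22 of 517 cells, 4.26%). Of those 22 cells, 13 were of cluster 1, 6 of cluster 5 and 0 of the interneuron-like cluster. Cxcr4 did not divide in this way. It was 0, 0.111, 0.0486 and 0 in the Lhx6 gate and 0.107, 0.108, 0.0460 and 0.106 in the other, and these ranges overlapped.

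Finer marker groups, chosen after the values were seen, placed Cxcl12 within the excitatory lineage. Of 131 cells with Neurog2 and Eomes but neither Neurod2 nor Neurod6, 0 had a Cxcl12 UMI, which allows a share of up to 2.29%. In cells with Neurod2 or Neurod6 beside Eomes, Cxcl12 was 0.910 in WT3, 0.649 in WT6, 0.721 in Het5 and 0.875 in Het9 (302 of 1320 cells, 22.9%). Cells with Neurod1 beside Neurod2 or Neurod6 but no Eomes had 0.527, 0.268, 0.477 and 0.312 (110 of 885 cells). Those with 2 or more UMIs of Neurod2 and Neurod6, but no Eomes or Neurod1, had 0.255, 0.127, 0.222 and 0.140 (38 of 705). Cells with a Dlx UMI were left out of these 4 groups. In each library Cxcl12 was highest in the second of these 4 groups, lower in the next, lower again in the last, and at 0 in the first.
Cxcr4 was found in the first 3 of these groups and not in the last. It was 0.113, 0.144, 0.0218 and 0.0355 in the 131 cells without Neurod2 or Neurod6 (7 cells with a UMI). It was 0.0320, 0.0486, 0.0569 and 0.0390 in the next group, 0.00894, 0.00977, 0.0298 and 0.0156 in the third, and 0 of 705 cells in the last (up to 0.426%). The first and second groups overlapped between libraries. In groups of cells with a Dlx gene, Ackr3 averaged 0.162 ± 0.0339 (SD, n = 4 libraries) in cells with Top2a, a gene of dividing cells, 0.472 ± 0.130 with Lhx6, 0.226 ± 0.126 with none of these genes (52 of 720 cells) and 0.0440 ± 0.0323 with the striatal factors Ebf1 or Isl1. Cxcl12 averaged 0.0914 ± 0.0654 in the last of these, from 8 of 373 cells, of which 4 were of cluster 1.

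**Figure D2:**
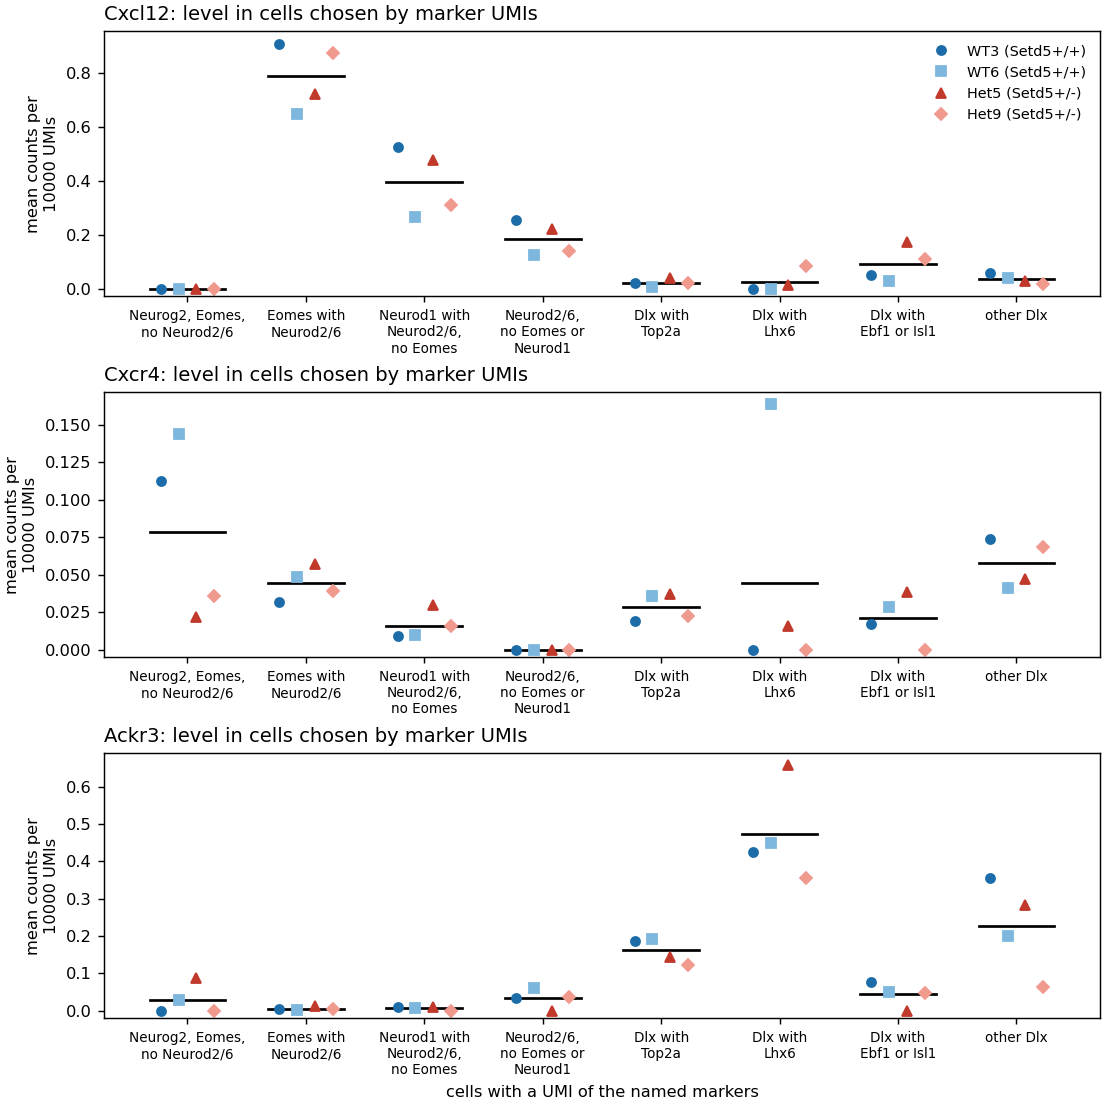
Mean counts per 10000 UMIs (y axis) in 8 groups of cells chosen by UMIs of marker genes (x axis), with 1 point per library and a line at their mean. Cxcl12 is at 0 in the first group and highest in the second (0.649 to 0.910), Cxcr4 is at 0 in excitatory cells without Eomes and Neurod1, and Ackr3 is highest in cells with a Dlx gene and Lhx6 (0.356 to 0.657).

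Cluster 5 was divided further after its values were seen. At the higher resolution, its cells fell mainly into 3 clusters, which also took in cells of other clusters. One (260 cells, 166 of them from cluster 5) was led by the transcription factor Tfap2d and had Cxcl12 at 0.962, 0.772, 1.08 and 1.53, with Cxcr4 in 0 of 260 cells, which allows a share of up to 1.15%. Another (377 cells, 243 of them from cluster 5), led by the neuropeptide gene Tac2 and by Synpr, had Cxcl12 at 0.246, 0.182, 0.152 and 0.229. A Cxcl12 UMI was found in 39 of its cells (10.3%). Its Cxcr4 was 0.0898, 0.273, 0.220 and 0.118, with a UMI in 53 cells (14.1%, interval 10.7 to 18.0) and 34.3% of all Cxcr4 UMIs. In all 4 libraries the first of these was higher for Cxcl12 and the second for Cxcr4. The remaining one (208 cells, 135 of them from cluster 5), led by Crym and Gabra2, had Cxcl12 in 3 cells and Cxcr4 in 5.
Cells with UMIs of both genes were few. Within cluster 5, 79 cells had Cxcl12 and 29 had Cxcr4, and 0 had both, where 4.08 would be met if the 2 were independent within each library. Over all cells, 6 had both, against 11.4 if they were independent within each cluster and library. Cxcl12 and Ackr3 met in 4 cells (4.88 if independent) and Cxcr4 and Ackr3 in 7 (5.08 if independent). The expected counts take cluster 5 as a whole, although its parts differed in Cxcl12 and in Cxcr4. All of these counts are a description and were not tested.

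**Figure D3:**
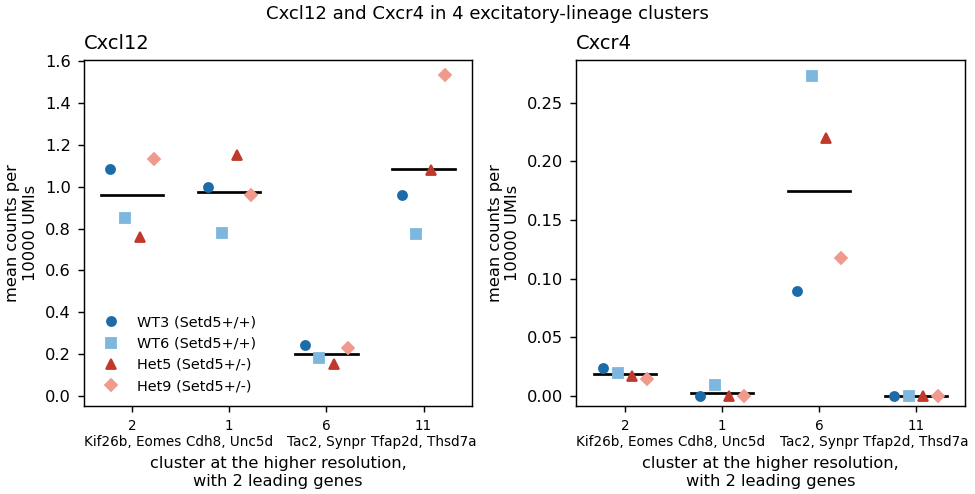
Mean counts per 10000 UMIs (y axis) of Cxcl12 and Cxcr4 in 4 clusters of the higher resolution (x axis, with 2 leading genes each), with 1 point per library and a line at their mean. The Tac2 cluster is the lowest of the 4 for Cxcl12 (0.152 to 0.246) and the highest for Cxcr4 (0.0898 to 0.273).

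Genes with a like pattern were sought by Pearson's r over the 13 clusters, among 5940 genes. For Cxcl12 these were Cdh10 (r = 0.92), A930024E05Rik (0.90), Frrs1l (0.89), Unc5d (0.88) and Ptprk (0.87). Unc5d, a netrin receptor of migrating neurons, was highest in cluster 1, as was the cadherin Cdh10. For Cxcr4 they were Gas6 (0.94), March1 (0.91), Hpcal1 (0.90), Samd3 (0.90) and Ptpre (0.90), each highest in the Cajal-Retzius cell-like cluster, which has 35 cells. For Ackr3 they were Nkx2-1 (0.93), Lhx6 (0.92), Lhx8 (0.91), Etv1 (0.85) and Npy (0.83), and the first 3 are transcription factors of the medial ganglionic eminence. Between the 3 genes themselves, r was -0.14 for Cxcl12 and Cxcr4, -0.55 for Cxcl12 and Ackr3, and -0.14 for Cxcr4 and Ackr3. The points are 13 clusters of the same 4 libraries and differ in depth, so r is a description only.

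Genotypes were next compared, to ask whether Setd5 haploinsufficiency changed the ligand or its receptors. Over all cells, Cxcl12 was 0.327 in WT3, 0.189 in WT6, 0.283 in Het5 and 0.304 in Het9, and the genotypes overlapped. Its log2 fold change was 0.16 (SE 0.17, 95% interval -0.23 to 0.56, adjusted p = 0.994, limma). Without WT3 it was 0.45, and without WT6 it was -0.12. Of the 8137 genes tested over all cells, 0.086% were called, and Cxcl12 was not among them. Cxcr4 was 0.0342 and 0.0539 against 0.0400 and 0.0353, and also overlapped. Ackr3 was 0.106 and 0.104 against 0.0906 and 0.0406, lower in both Setd5+/- libraries. Of all genes tested, 32% had genotypes that did not overlap, 16.4% with Setd5+/- lower. Neither receptor reached the mean of 0.1 required for testing. Without that limit, Ackr3 had a log2 fold change of -0.32 (95% interval -0.68 to 0.03, adjusted p = 0.959, limma) and Cxcr4 one of -0.06. That of Ackr3 was -0.11 without Het9. An exact two-sided permutation test gave p = 0.333 for Ackr3, the smallest that 2 against 2 fetuses allow. Over all cells, a change in level and a change in the share of a cell type cannot be told apart. The interneuron-like cluster, highest for Ackr3, made up 9.15% and 11.8% of WT3 and WT6, and 6.84% and 6.09% of Het5 and Het9. Cluster 2, with the most Ackr3 UMIs, made up 13.4% and 11.1% against 11.3% and 8.30%, which overlapped. The part of these shares was not tested.

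Within clusters, tests were possible for Cxcl12 in 5 clusters, for Ackr3 in 3 and for Cxcr4 in 2, and limma called 0 of these, with 0 at an unadjusted p under 0.05. The share of all tested genes called there was 0.0912% in cluster 0, 0.0913% in cluster 4, 0.0773% in cluster 5, 0.158% in cluster 6, 0.283% in cluster 7, 0.0657% in cluster 9 and 0% in cluster 11, where 285 genes had an unadjusted p under 0.05. In cluster 1, where 0.117% of 7667 genes were called, the log2 fold change of Cxcl12 was 0.12 (SE 0.14, 95% interval -0.17 to 0.42, adjusted p = 0.962, limma). The interval is narrowest here, and a 2-fold change in either direction on this scale lies outside it. Without WT3 the change was 0.36, and without WT6 it was -0.11. Cxcl12 gave 0.28 in cluster 5, -0.14 in cluster 0, -0.14 in cluster 6 and 0.08 in cluster 9 on the log2 scale, all with intervals across 0. The direction of each turned with some library left out. In the cycling cells, where 0.107% of genes were called, Ackr3 gave -0.30 (95% interval -0.75 to 0.14, adjusted p = 0.973, limma), and the Setd5+/- libraries were the lowest 2 of the 4, as for 16.6% of genes tested there. In interneuron-like cells Ackr3 gave -0.06 (95% interval -0.83 to 0.70), the 2 Setd5+/- libraries being the highest and the lowest of the 4. Cxcr4 gave -0.19 in intermediate progenitor-like cells (95% interval -0.82 to 0.44) and -0.13 in cluster 11 (-1.88 to 1.61). Since 84 of the 132 cells of cluster 11 carry barcodes of all 4 libraries, their genotype is in doubt, and too few cells were left for a fit without them. Without the limit on the mean, Ackr3 in radial glia-like cells gave -0.66 (95% interval -1.15 to -0.16, unadjusted p = 0.0122, adjusted p = 0.864, limma). In excitatory neuron-like cells, where 13 of 1276 cells had a UMI, Ackr3 gave -0.28 (unadjusted p = 0.0259, adjusted p = 0.963, limma). Both Setd5+/- libraries were the lowest 2 in each, as for 16.4% and 15.2% of genes there, and 0.129% and 0.0419% of genes were called. The Ackr3-rich cluster led by Mt3 made up 31 of 102 and 77 of 254 radial glia-like cells in WT3 and WT6, and 55 of 236 and 24 of 126 in Het5 and Het9, and its part in this difference was not tested.
The genotype effect was also compared between the pair of tested clusters with the highest level of each gene. The difference on the log2 scale was -0.16 for Cxcl12 (cluster 1 against 5, adjusted p = 0.971), 0.06 for Cxcr4 (cluster 11, with the cells in doubt, against 6, adjusted p = 0.9999) and 0.24 for Ackr3 (cluster 4 against 2, adjusted p = 0.972), by limma. None passed the threshold, and 0%, 0.0193% and 0% of genes did.

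**Figure D4:**
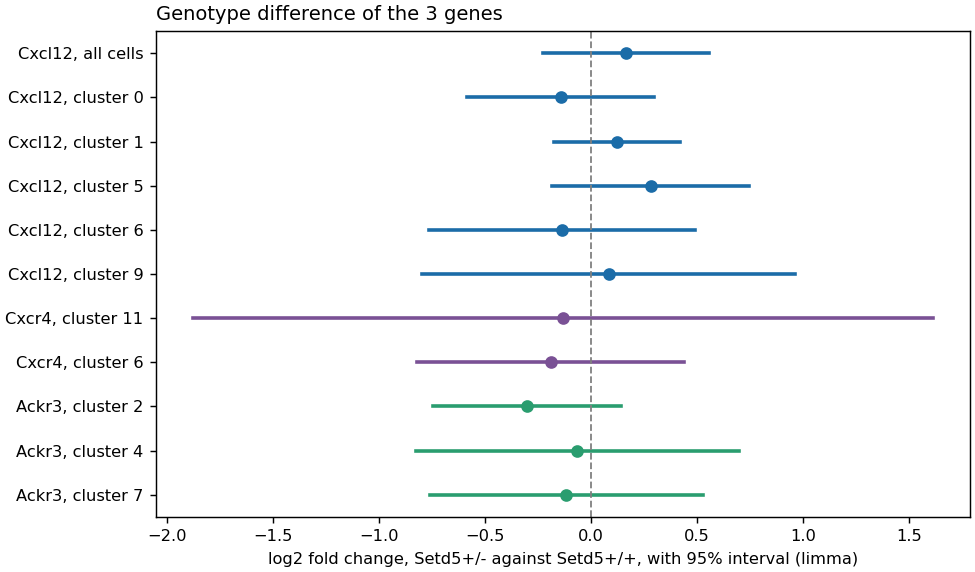
Log2 fold change of Setd5+/- against Setd5+/+ (x axis) for each gene and group of cells tested (y axis), with points at the limma estimate and lines over its 95% interval. All 11 intervals reach across 0, and the narrowest is that of Cxcl12 in cluster 1 (-0.17 to 0.42).

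The other genes of the pathway form a list of 37, of which 32 are in the table and 23 could be tested over all cells. Limma called 0 of the 23, with 2 at an unadjusted p under 0.05 (Pak3 and Mapk3), against 4.34% of all genes, and their median log2 fold change was 0.03, against -0.00237 for all genes. Of the 23, 8 were higher and 2 lower in both Setd5+/- libraries, against 15.5% and 16.4% of all genes. Among other ligands, Mif, which also binds Cxcr4, was 7.13 and 7.83 in the Setd5+/+ libraries and 8.38 and 7.69 in the Setd5+/- libraries. Hmgb1, a chromatin protein that can form a complex with Cxcl12 outside cells, was 16.8 and 16.7 against 17.2 and 15.1. The genotypes overlapped for both. Adm, whose peptide Ackr3 can bind, and the chemokine Cxcl14 stayed under 0.1 in each library over all cells.
Cd74, a receptor for Mif, was 1.38 and 1.23 against 1.41 and 2.41 over all cells. It came mostly from cluster 11, where it was 71.7, 80.0, 84.0 and 71.0. Among the Gi subunits, through which Cxcr4 signals, Gnai2 was 2.70 and 3.50 against 3.04 and 3.23. Of the 12 clusters large enough for a fit, interneuron-like cells had the highest Gng2 (5.30, 5.27, 4.26 and 5.66). Of the arrestins that bind the receptors, Arrb2 was 0.247 and 0.245 against 0.219 and 0.247, and Arrb1 was 0.0721 and 0.101 against 0.0720 and 0.0785.
Among the effectors, Elmo1, which acts with Dock proteins on the GTPase Rac1, was highest of the same 12 clusters in interneuron-like cells (0.958, 1.40, 1.37 and 1.52). Pak3, a kinase that Rac1 activates, was the only gene of the list called in any cluster. In subpallial progenitor-like cells it was 5.74 in WT3, 4.92 in WT6, 3.33 in Het5 and 3.74 in Het9. Its log2 fold change there was -0.58 (SE 0.13, adjusted p = 0.0248, limma), in a cluster where 0.283% of 7431 genes were called. Sex and genotype cannot be told apart for this call either. Without WT3 the change was -0.47 with an adjusted p = 0.9998, and without Het5 it was -0.50 with an adjusted p = 0.0968, so the call was lost without either of these 2 libraries, and it was lost under some other settings as well. Over all cells, Pak3 was 1.37 and 1.38 against 1.13 and 0.989 and was not called (adjusted p = 0.481).

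Cxcl12 lies on the same chromosome as Setd5, 4015099 bases away, so the genes between the pair were examined as a list. The table holds 51 of them, and 27 could be tested over all cells. Limma called 0 of these 27, with 2 at an unadjusted p under 0.05, against 4.34% of all genes, and their median log2 fold change was 0.02. Of the 27, 4 were higher and 5 lower in both Setd5+/- libraries, against 15.5% and 16.4% of all genes.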

How the data were processed

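The deposited table gives, per the file and its values, the natural log of 1 plus each gene's counts scaled to 10000 UMIs in every sorted cell. Cell Ranger 2.1, Seurat 2.3.0 and the build mm10 appear in the submitters' processing notes, and samples were grouped by the genotype in the labels. Annotation, strand setting and cell filters were not given in the sources used here. After the log was undone, 100% of values above 0 were whole multiples (tolerance 0.001) of the smallest value of their cell, so UMIs could be recovered. Library prefixes carry the genotype but no replicate number of the labels. The 3 genes, the pathway and marker lists and the tests were chosen with earlier results of these data known. Genes named are the 3 members, Setd5, the pathway list, cell type markers, leading genes of clusters, the 5 genes of highest r for each member and the sex genes.

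Cells were clustered by the Leiden method on 2000 variable genes, 20 principal components and 20 neighbors. The resolution was 0.4, the lowest whose number of clusters came closest to 14. Of all cells, 44 (0.671%) were called doublets by Scrublet and kept. Limma with a trend compared genotypes on log2(library mean + 0.1), where the library mean is in counts per 10000. It took genes with a mean of 0.1 or more, in clusters that had 20 or more cells of each library, and p-values were adjusted by Benjamini-Hochberg over all genes tested (threshold 0.05). Low genes change less on this scale than in truth. The fit was also run on data simulated from the real means, with known changes. The alternatives are given in the closing section. Gene positions are from GENCODE M21 and promoters from RefSeq, which matched 3 of 3 genes. Python 3.11.15 (scanpy 1.11.5, leidenalg 0.10.2, scipy 1.17.1) and R 4.3.3 (limma 3.58.1) were used.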

Additional observations from a re-analysis of the deposited data

How the results depend on the processing

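No paired analysis was possible because the columns carry no replicate numbers of the labels. The settings tried were a pseudocount of 0.01 or 1, no limit on the mean, fits without 1 library, recovered UMIs summed, cells of shared barcodes or doublets removed, cells thinned to 3000 UMIs, resolutions of 0.1 and 0.7, the 3 genes and their pathway kept in clustering, and marker gates. Cluster 9 divided by Neurod1 or Neurod6, cluster 11 divided by shared barcodes and UMIs summed for levels were added after seeing the data. None of the 142 alternative fold changes of the 3 genes was called, and 113 kept their direction. With limma, 6 of them had an interval wholly on one side of 0, namely Cxcl12 without WT3 (all cells and cluster 1), without Het5 (clusters 5 and 9) and without Het9 (cluster 9), and Ackr3 without Het5 (cluster 4). The cause of the reversals was not tested.
With a library left out, the log2 fold change of Cxcl12 ran from -0.12 to 0.45 over all cells, -0.44 to 0.15 in cluster 0, -0.11 to 0.36 in cluster 1, -0.0411 to 0.60 in cluster 5, -0.39 to 0.00326 in cluster 6 and -1.19 to 1.35 in cluster 9. That of Ackr3 ran from -0.46 to -0.14 in cluster 2 (the latter without Het9), -0.69 to 0.56 in cluster 4 and -0.32 to 0.0929 in cluster 7, and that of Cxcr4 from -0.53 (without WT3) to -0.13 in cluster 6 and -0.71 to 0.44 in cluster 11. In cluster 6, 3 such fits were not run because the mean fell under 0.1, and there the untested difference was 0.12 for Cxcl12 without WT3, -0.27 without Het9, and 0.15 for Cxcr4 without WT6. The direction turned for Cxcl12 without WT6 (all cells, clusters 1 and 9), WT3 (cluster 0), Het9 (clusters 0 and 5) or Het5 (clusters 6 and 9), for Ackr3 without Het9 (clusters 4 and 7) or WT3 (cluster 7), and for Cxcr4 without WT3 or Het9 (cluster 11). The genes called over all cells ran from 7 to 41, with 13 without WT3 and 41 without Het5. Without Het5 they rose to 254 in cluster 4, 108 in cluster 2, 73 in cluster 3, 67 in cluster 7, 25 in cluster 0, 22 in cluster 6 and 9 in cluster 9, from 7, 8, 17, 21, 7, 12 and 5, so the shares called there depend on that library. Cluster 6 had 27 without WT6.
Cxcl12 turned to 0.0246 at the lower resolution for clusters 0 and 6, which join there, to -0.0435 (cluster 1) and -0.12 (cluster 5) at the higher one, and to -0.29 (cluster 5) and 0.23 (cluster 6) with the genes kept in clustering. Thinning turned it to -0.0226 in cluster 5 and -0.54 in cluster 9, where a pseudocount of 0.01 gave -0.0571 and cells with Neurod1 or Neurod6 gave -0.12. Ackr3 in cluster 4 turned to 0.00796 with a pseudocount of 1, 0.15 with summed UMIs, 0.41 with thinning and 0.17 in the Lhx6 gate. It was 0.18 in cluster 2 at the higher resolution and 0.11 in cluster 7 with thinning.
The call of Pak3 in cluster 7 was also lost with thinning (log2 fold change -0.61, adjusted p = 0.751), at the lower resolution (-0.19, 0.987), where it joins other cells in a cluster of 1120, and with the genes kept in clustering (-0.60, 0.0861), by limma. Cluster 1 had Cxcl12 at 0.511 at the lower resolution, where it joins other clusters. At the higher one its counterpart had 0.958, below the 1.09 of the Tfap2d cluster. Cluster 9 stood above the main counterpart of cluster 5 for Cxcl12 at the higher resolution (0.202) and with the genes kept in clustering (0.143). The former held 243 of the 551 cells of cluster 5, and another 166 lay in the Tfap2d cluster, above cluster 9. Cluster 9 also stood above cluster 5 with thinning, with summed UMIs and without WT6 or Het9. The Cxcr4 of cluster 12 was 0.110 at the lower resolution, where it joins radial glia. Of 429 alternative levels, 393 lay within 1 SD of the value given.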
